A study of Mus musculus with 12 samples.

Results

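Cardiac myofibroblasts treated with soluble CD74 alone (sCD74, the shed extracellular part of the MIF receptor CD74) were set against the same kind of cells given carrier alone. The comparison took 6 of the 12 whole-transcript microarrays of the series, 3 per group, and covered 22206 probe sets that were not controls, of 28846 rows in the table. All groups held wild-type C57BL/6J cells isolated from the hearts of mice aged 1 to 7 days and kept 10 to 14 days in culture, in which fibroblasts become myofibroblasts, the contractile, collagen-secreting cells of healing and scarred hearts. The sCD74 group had 40 nM sCD74 for 8 h, the MIF group 8 nM MIF, the combined group both proteins at those doses, and the carrier group neither. Arrays were paired by the code that the titles of same-numbered replicates share. The labels leave unsaid whether each replicate number was its own isolation, and the p-values therefore reflect array-to-array spread that may be technical. The cells were a primary culture, not a clone, and the transcripts of other heart cells were measured with them.

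CD74 is the invariant chain of MHC class II and, at the cell surface, a receptor for the cytokine MIF, which signals through it together with CD44 and chemokine receptors. Proteases release its ectodomain, and the soluble form can bind MIF. Interferon-inducible genes, on which much of this account turns, are the antiviral programme that cells switch on when type I or type II interferons reach their receptors: JAK kinases activate STAT and IRF factors, which bind short elements in the promoters of effector genes. The Cd74 transcript itself was not analysed here.

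After 8 h with sCD74 alone, no transcript passed the test against carrier. Interferon-inducible effectors and GTPases lay higher on the sCD74 arrays of replicates 2 and 3, and not on those of replicate 1. At the median effector the differences of replicates 2 and 3 were 0.51 and 0.28 on the log2 scale. By group means, the effector median against carrier was 0.21 with sCD74, 0.06 with MIF alone and 0.35 with both proteins. That of the GTPases was 0.46, 0.59 and 0.75. Macrophage transcripts lay lower in replicates 1 and 3, and their median against carrier was also negative with MIF alone and with both proteins. Collagen, contractile and TGF-beta genes differed little. Single members such as Col5a3 and Ltbp2 also differed in replicate 2, but the pair median of each list was largest in replicate 1. In that replicate the carrier array had the lowest mean level for each of these lists.

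By limma with the replicate number as a block, 0 of 22206 probe sets had an adjusted p under 0.05 (Benjamini-Hochberg), a share of 0%, and the smallest adjusted p was 0.9995. At an unadjusted p under 0.05, 335 probe sets (1.51%) were higher with sCD74 and 586 (2.64%) were lower. Together these 921 were fewer than the 1110.3 that make up 5% of the probe sets tested. The median difference over all probe sets was -0.0002, and 49.9% had a higher mean with sCD74. A difference was higher in all 3 pairs for 2725 probe sets (12.3%) and lower in all 3 for 2862 (12.9%). The arrays of both groups did not overlap for 561 probe sets that were higher with sCD74 (2.53%) and for 601 that were lower (2.71%). The median standard error of a difference was 0.14, and the 95% interval of the median probe set reached 0.31 to either side of its estimate. These differences are on the log2 scale, as are all levels and differences that follow unless a fold is named.

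The 3 pairs gave different pictures of the treatment. Across all probe sets, the sCD74 minus carrier differences of replicates 1 and 2 correlated at 0.026, those of replicates 1 and 3 at -0.021 and those of replicates 2 and 3 at 0.020, over probe sets that share arrays and normalization. The SD of the differences over probe sets was 0.32 in replicate 1, 0.23 in replicate 2 and 0.26 in replicate 3. At least 2-fold higher levels with sCD74 were seen for 57, 29 and 33 probe sets in the pairs of replicates 1, 2 and 3, and at least 2-fold lower levels for 94, 14 and 22. A narrower count took the 12576 probe sets whose mean over the 12 arrays lay above the negative control level. Of these, 29, 18 and 14 were at least 2-fold higher and 32, 3 and 16 at least 2-fold lower, so that the balance of replicate 3 turned. By the group means only 3 probe sets were at least 2-fold higher, Rsad2, Vmn2r74 and a probe set with no gene name, and 0 were at least 2-fold lower. Negative control probe sets had array medians of 7.49, 7.53 and 7.90 on the sCD74 arrays, against 7.69, 7.37 and 7.70 on the carrier arrays. Their mean over the 12 arrays, 7.53, serves below as the background level, and the part that the raised background of single arrays had in any difference was not tested.

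**Figure D1:**
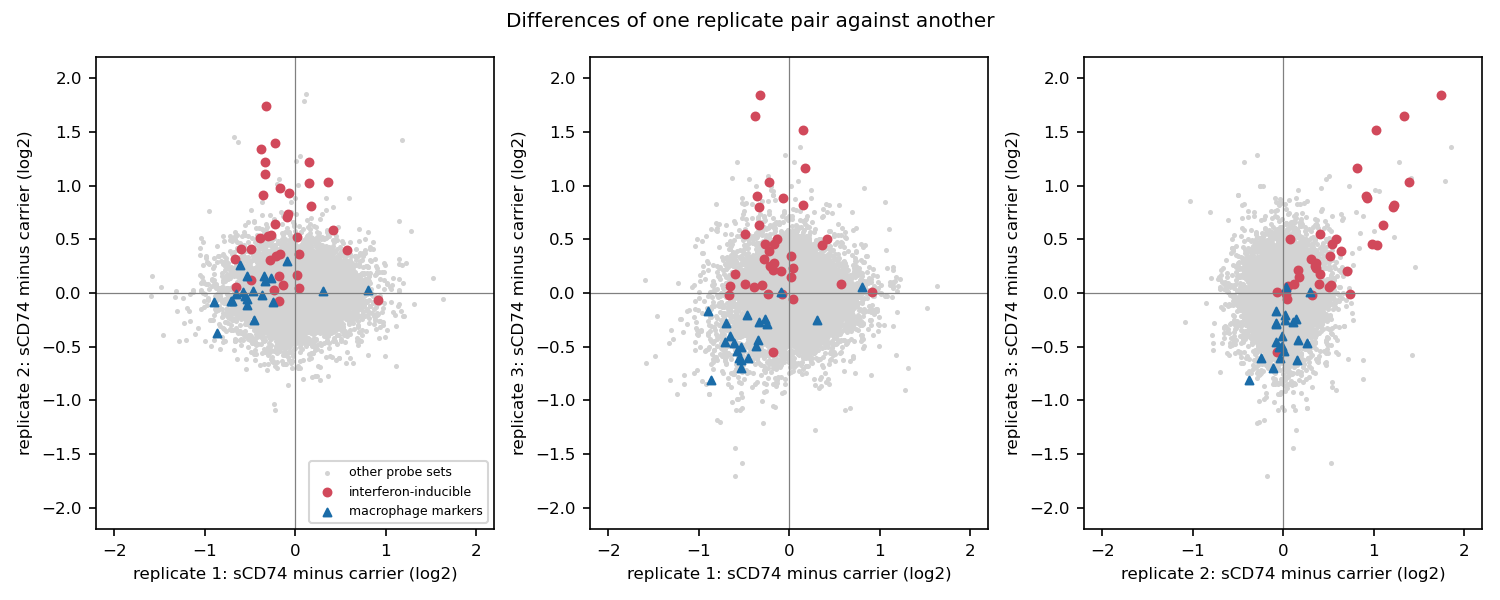
Differences between sCD74 and carrier (log2) in one replicate pair against those in another, for each of the 3 combinations of pairs. Grey points are the 12762 probe sets with at least 1 group mean above the negative control level, red circles the measured interferon-inducible effectors and GTPases, and blue triangles the measured macrophage markers. Most red points lie to the upper right where replicates 2 and 3 are set against each other, and most blue points to the lower left where replicates 1 and 3 are.

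The labelled cell type was checked first. Of 11 measured fibroblast markers none lay below the background level, and their mean level was 14.45, 14.20 and 14.29 on the sCD74 arrays, against 14.28, 14.14 and 14.31 on the carrier arrays. Dcn, the matrix proteoglycan decorin, was at 17.73, 17.57 and 17.61 with sCD74 and at 17.67, 17.49 and 17.68 with carrier. Macrophage transcripts were abundant as well. Lyz2, the lysozyme of myeloid cells, was at 16.82, 17.47 and 17.15 with sCD74 and at 17.06, 17.55 and 17.44 with carrier, and the 21 measured macrophage markers had mean levels of 12.21, 13.65 and 12.95 with sCD74 and of 12.62, 13.65 and 13.35 with carrier. Endothelial markers differed more by replicate than by treatment: Cdh5, the junctional VE-cadherin, was at 14.47, 11.14 and 12.02 with sCD74 and at 14.59, 11.12 and 12.64 with carrier. Of 11 lymphocyte markers, 9 lay below background in both groups, as did 5 of 6 Schwann and glial markers and 6 of 15 cardiomyocyte markers. In bulk RNA of this kind, fewer cells of a type and less RNA per cell cannot be told apart.

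The promoters of 4 interferon-inducible genes are shown first because their levels are described below and they hold the interferon-stimulated response element, which most effectors and all GTPases with a promoter in the table share and most of the upstream genes do not. Each stretch is 120 bases of the RefSeq promoter table (GRCm38.p6), read 5′ to 3′ on the gene's own strand, and capitals mark GAAANNGAA, the core of that element, on either strand, where overlapping matches run together. Ifit3 lies at chr19:34583367-34583486 on the plus strand, Ifih1 at chr2:62646308-62646427 on the minus strand, Gbp2 at chr3:142620543-142620662 on the plus strand and Isg15 at chr4:156200825-156200944 on the minus strand.
Ifit3: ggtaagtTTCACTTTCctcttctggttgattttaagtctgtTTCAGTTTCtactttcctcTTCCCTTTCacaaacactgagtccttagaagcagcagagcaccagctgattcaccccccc
Ifih1: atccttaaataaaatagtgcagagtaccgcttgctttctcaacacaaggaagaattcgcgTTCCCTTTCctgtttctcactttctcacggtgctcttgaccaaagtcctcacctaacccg
Gbp2: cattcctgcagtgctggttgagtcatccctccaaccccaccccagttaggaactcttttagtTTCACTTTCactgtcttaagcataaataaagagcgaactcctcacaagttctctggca
Isg15: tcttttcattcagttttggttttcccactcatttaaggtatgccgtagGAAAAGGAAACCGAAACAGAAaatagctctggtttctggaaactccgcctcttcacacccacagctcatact
Ifit3 held 3 matches before its start, Isg15 3 that overlap, and Ifih1 and Gbp2 1 each. Of the interferon-stimulated effectors, 20 had a promoter in the table and 12 of these (60%) held the element within 250 bases before to 50 bases after the start, as did 6 of 6 interferon-inducible GTPases. Among the interferon sensors and transcription factors 3 of 11 held it, and among interferons, their receptors and JAK signalling 2 of 12. The share over the 15691 tested genes with a promoter was 9.28%. The core of the gamma-activated sequence, TTCNNNGAA, was in 35% of the effectors, 50% of the GTPases and 9.02% of tested genes. A match describes letters only and shows no binding in these cells.

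Among 29 measured interferon-stimulated effectors, 25 had a higher mean with sCD74, against 49.9% of all probe sets. In all 3 pairs 6 of the 29 were higher, against 12.3% of all probe sets, and 7 had an unadjusted p under 0.05 on the higher side, against 1.51%, with 0 called after adjustment. Their median difference was 0.21, against -0.0002 over all probe sets. In single pairs the median was -0.21 in replicate 1, 0.51 in replicate 2 and 0.28 in replicate 3, with 8, 27 and 24 of the 29 higher. Without carrier replicate 2 the median was 0.11, without the pair of replicate 2 it was 0.08, without carrier replicate 3 it was 0.13 and without the pair of replicate 3 also 0.13. Leaving out carrier replicate 1 gave 0.32, and leaving out the pair of replicate 1 gave 0.33. The mean level of the macrophage markers was lower with sCD74 in replicates 1 and 3 and the same, 13.65, in both groups in replicate 2, and its part in the interferon values was not tested.

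Ifit3, whose product binds viral RNA with its IFIT partners, was at 9.91, 12.81 and 12.33 on the sCD74 arrays, against 9.76, 11.78 and 10.81 on the carrier arrays. It was higher in each pair, yet the groups overlapped because both arrays of replicate 1 were low. The difference was 0.90 ± 0.25 (SE), a fold of 1.86, with a limma unadjusted p of 0.0034 and an adjusted p of 0.9995. For the other genes described below the adjusted p against carrier was at least as high. Its near-identical neighbour Ifit3b, at 9.69, 12.44 and 11.92 with sCD74 and 9.64, 11.17 and 10.70 with carrier, may share signal with it.

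Cmpk2, a mitochondrial nucleotide kinase, was at 8.53, 9.47 and 9.05 with sCD74 and at 8.18, 8.43 and 8.60 with carrier, higher in each pair by 0.36, 1.04 and 0.45. The fitted difference was 0.62 ± 0.17 (SE; unadjusted p = 0.0041 by limma). Ifit2, a further member of the IFIT family, differed by a like amount in each pair. It was at 9.08, 9.84 and 9.45 with sCD74 and at 8.66, 9.26 and 8.95 with carrier, a difference of 0.50 ± 0.22.

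Other effectors were higher in replicates 2 and 3 only. Rsad2, which encodes the antiviral enzyme viperin, was at 6.68, 8.84 and 8.70 with sCD74 and at 7.00, 7.10 and 6.85 with carrier. All carrier arrays and the sCD74 array of replicate 1 lay below the background level, so its difference of 1.09 ± 0.46 does not tell how much transcript carrier cells held. Ifit1 showed the same layout, at 6.66, 8.68 and 8.55 with sCD74 and at 7.04, 7.34 and 6.90 with carrier. Isg15, the ubiquitin-like modifier, was at 6.94, 8.88 and 8.84 with sCD74, against 7.28, 7.66 and 8.04 with carrier, a difference of 0.56 ± 0.23. Oasl2, of the oligoadenylate synthetase family, was at 9.50, 11.32 and 10.63 with sCD74 and at 9.72, 9.92 and 9.60 with carrier, a difference of 0.74 ± 0.30. In each of these 4 genes the sCD74 array of replicate 1 was lower than its carrier partner. Bst2, the membrane tether tetherin, was the only effector lower in all 3 pairs, at 12.83, 13.98 and 13.31 with sCD74 and at 13.02, 14.05 and 13.86 with carrier.

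Interferon-inducible GTPases, which attack the vacuoles of intracellular pathogens, gave the highest list median, 0.46 over 8 measured members, of which 6 had a higher mean. Their pair medians were -0.12, 0.87 and 0.64 in replicates 1, 2 and 3, and 8 of 8 were higher in each of replicates 2 and 3. Without the pair of replicate 1 the median was 0.81 and without that of replicate 2 it was 0.21. It was 0.70 without sCD74 replicate 1, 0.26 without sCD74 replicate 2, 0.69 without carrier replicate 1 and 0.30 without carrier replicate 3. Gbp2 was at 9.42, 11.21 and 10.96 with sCD74 and at 9.25, 10.39 and 9.80 with carrier (difference 0.72 ± 0.26, SE; limma unadjusted p = 0.017). Gbp4 was at 8.12, 9.52 and 9.16 with sCD74 and at 7.97, 8.29 and 8.34 with carrier (difference 0.73 ± 0.32). Gbp8, a guanylate-binding protein outside the list, went the other way and is described among the lower genes.

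**Figure D2:**
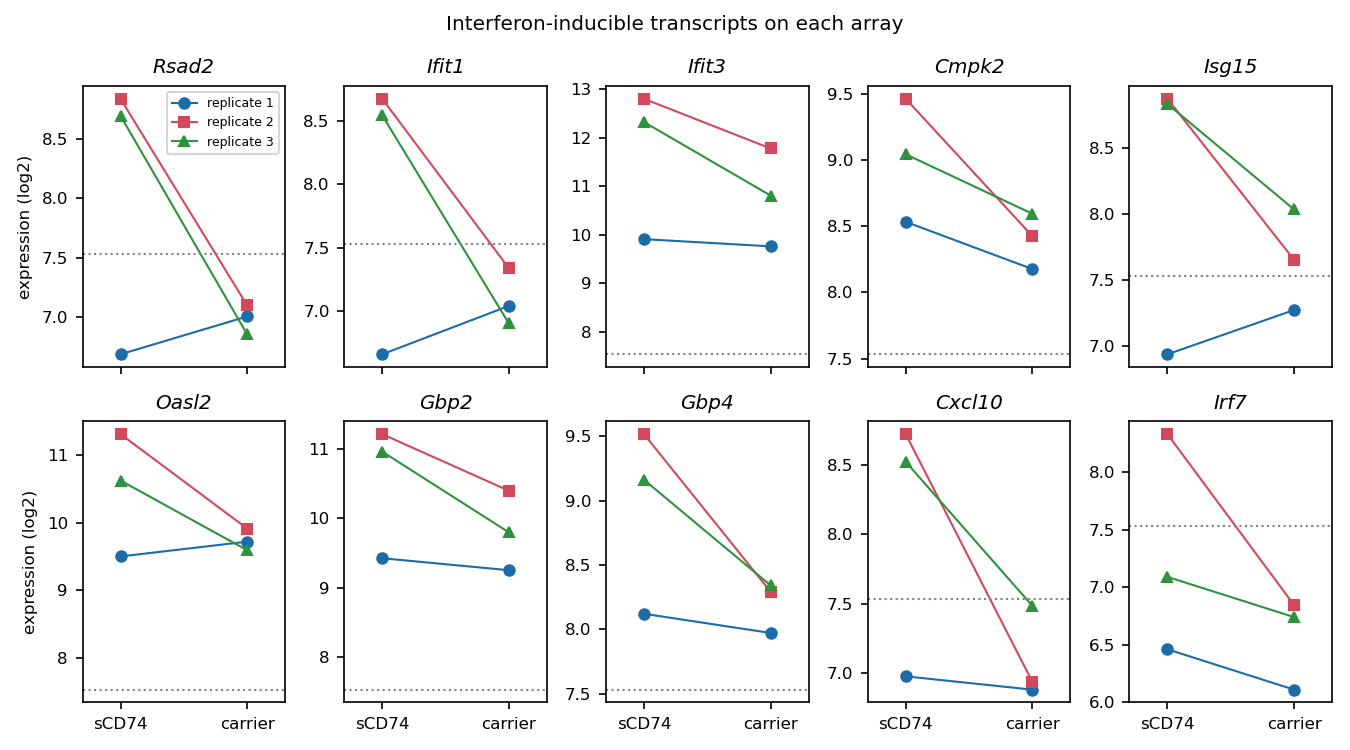
Expression level (log2, a separate scale in each panel) of 10 interferon-inducible genes on the 3 sCD74 arrays and the 3 carrier arrays, with lines joining same-numbered replicates and a dotted line at the negative control level of 7.53. Replicates 2 and 3 lie higher with sCD74 in all 10 panels, while in replicate 1 the sCD74 array is lower for Rsad2, Ifit1, Isg15 and Oasl2 and higher by 0.10 to 0.36 for the other genes.

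The 13 interferon sensors and transcription factors had a median of 0.06, with 8 higher and 5 lower, and members that differed in size and direction. Ifih1, which encodes the double-stranded RNA sensor MDA5, was at 11.29, 11.90 and 11.78 with sCD74 and at 11.00, 11.39 and 11.18 with carrier, higher in each pair, with a difference of 0.46 ± 0.16 (SE; limma unadjusted p = 0.014). Irf7, the factor that amplifies type I interferon output, was at 6.46, 8.33 and 7.09 with sCD74 and at 6.11, 6.84 and 6.74 with carrier, a difference of 0.73 with both group means below background. Tlr7, the endosomal sensor of single-stranded RNA, was lower by its mean, at 13.85, 15.60 and 14.69 with sCD74 and at 14.60, 15.55 and 15.09 with carrier. Stat2 differed by 0.26 ± 0.18 and Irf9 by 0.12 with a 95% interval from -0.26 to 0.51, and both belong to the complex that type I interferon activates. Ifnb1, the interferon-beta gene, lay near the background level, at 8.07, 7.73 and 7.77 with sCD74 and at 7.60, 7.85 and 7.50 with carrier. Its values for sCD74 replicate 3 and carrier replicates 1 and 3 lay below the negative control medians of those arrays. Its groups overlapped, and its difference was 0.21 with an interval from -0.09 to 0.50. Over 12 interferons, receptors and JAK signalling genes the median was -0.01, with 6 higher and 6 lower, and 4 lay below background in both groups. Among 11 genes of MHC class I presentation the median was 0.04, and of 6 MHC class II genes 0 had a higher mean, although 4 of these lay below background in both groups.

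Cxcl10, an interferon-inducible chemokine that attracts T cells, was at 6.98, 8.72 and 8.52 with sCD74, against 6.88, 6.94 and 7.48 with carrier. Its difference was 0.97, with a 95% interval from 0.17 to 1.78 and a limma unadjusted p of 0.022. Its carrier mean lay below background. Cxcl10 averaged 8.07 with sCD74, 8.45 with MIF, 8.71 with both and 7.10 with carrier. Cx3cl1, fractalkine, was at 9.05, 9.39 and 9.44 with sCD74 and at 8.69, 9.28 and 9.20 with carrier. Of 20 chemokines 12 had a higher mean, at a median of 0.08. Ccl2, a monocyte attractant, was at 13.18, 13.63 and 13.77 with sCD74 and at 13.23, 13.92 and 12.48 with carrier. Only its replicate 3 was higher, and the interval of its difference ran from -0.64 to 1.26.

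Macrophage markers had the lowest median of the 35 gene lists, -0.33. Of 21 measured markers 18 had a lower mean with sCD74. In all 3 pairs 11 were lower, against 12.9% of all probe sets, and 10 had an unadjusted p under 0.05 on the lower side, against 2.64%, with 0 called after adjustment. By pair the median was -0.53 in replicate 1, -0.01 in replicate 2 and -0.44 in replicate 3. Without the pair of replicate 1 it was -0.19, without that of replicate 2 it was -0.52 and without that of replicate 3 it was -0.22, and leaving out the sCD74 array alone gave -0.18 for replicate 1 and -0.21 for replicate 3. The marker level itself ran with the replicate number in both groups, lowest in replicate 1 and highest in replicate 2. Against the same carrier arrays the median was also negative with MIF alone, at -0.18, and with both proteins, at -0.12. For sCD74 minus MIF it was -0.14, with 4 of the 21 higher with sCD74.

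Aif1, the actin-bundling protein IBA1 of macrophages, had the smallest p on the lower side. It was at 10.12, 12.29 and 11.77 with sCD74 and at 10.99, 12.66 and 12.59 with carrier. Each pair was lower with sCD74, with differences of -0.87, -0.38 and -0.81, while the spread between replicates made the groups overlap. The fitted difference was -0.69 ± 0.15 (SE), a 1.61-fold lower level, with a limma unadjusted p of 0.00072. Tyrobp, the adaptor of myeloid receptors, was at 12.11, 14.06 and 13.16 with sCD74 and at 12.64, 14.18 and 13.86 with carrier (difference -0.45 ± 0.14). Trem2, a lipid receptor that signals through that adaptor, was at 11.45, 13.39 and 12.54 with sCD74 and at 11.91, 13.64 and 13.15 with carrier (difference -0.44 ± 0.14).

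Csf1r, the receptor on which macrophages depend for survival, was at 12.22, 14.63 and 13.56 with sCD74 and at 12.92, 14.71 and 14.01 with carrier (difference -0.41 ± 0.15). Fcgr3 and Fcer1g, an IgG Fc receptor and its signalling chain, differed by -0.37 ± 0.13 and -0.35 ± 0.14. In both genes the arrays of replicate 2 were level and the other pairs lower. The complement subunit C1qc differed by -0.40 ± 0.15, the lysosomal protease Ctss by -0.36 ± 0.14, the pore-forming Mpeg1 by -0.35 ± 0.15 and the lysosomal Laptm5 by -0.29 ± 0.13. Cx3cr1, the fractalkine receptor, was the only macrophage marker higher in all 3 pairs, at 7.74, 8.63 and 8.50 with sCD74 and at 6.93, 8.61 and 8.44 with carrier. Cd163 and Cd14 also had higher means, by 0.07 and 0.02. Over the 13 complement and acute phase genes, which include the 3 C1q subunits, 9 were lower and the median was -0.13. Among 11 dendritic cell and neutrophil markers 8 were lower, 8 lay below background in both groups, and the median was -0.04.

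**Figure D3:**
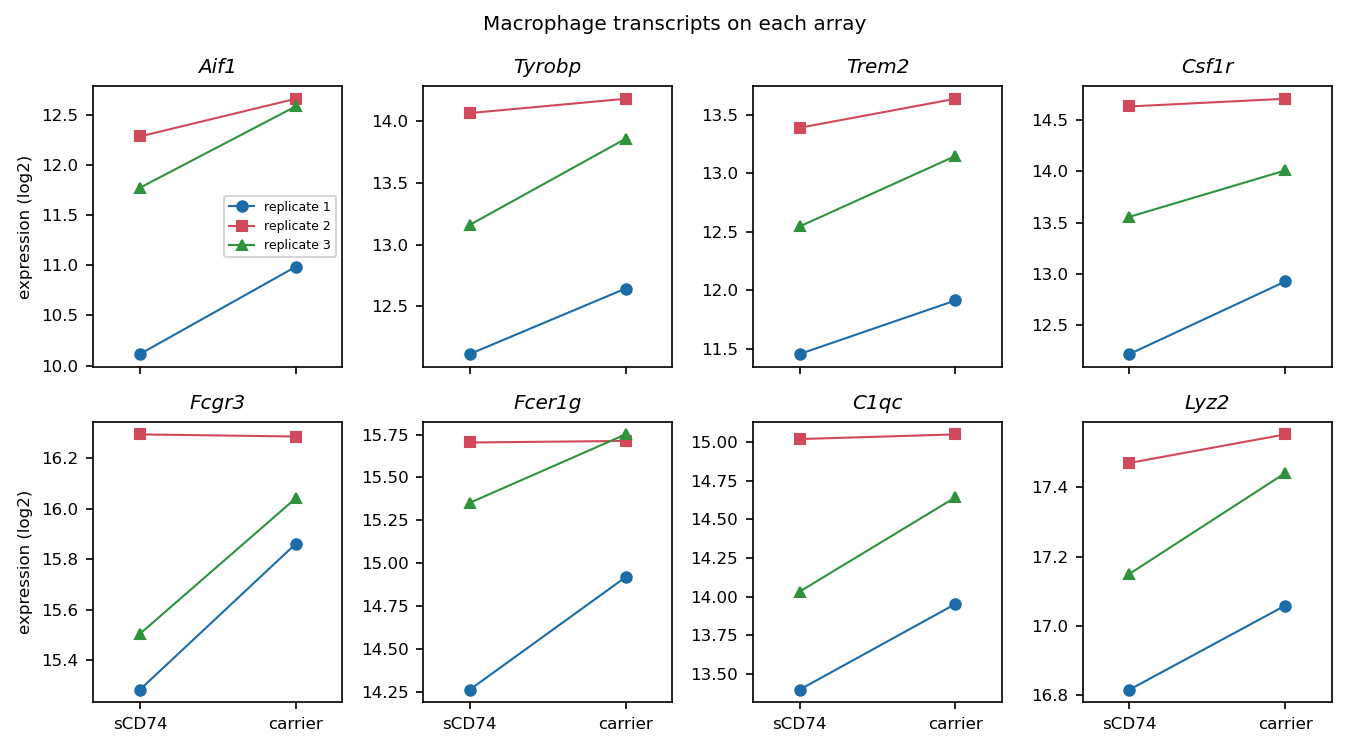
Expression level (log2, a separate scale in each panel) of 8 macrophage transcripts on the 3 sCD74 and the 3 carrier arrays, with lines joining same-numbered replicates. The lines of replicates 1 and 3 climb toward carrier in each of these panels, those of replicate 2 are nearly level in most, and the replicates stand in a like order in both groups.

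The 12 leading genes on each side by p came from named genes with both group means above background and 3 pairs of 1 sign. They are given as a description, since they were picked by that p. The rule did not compare sCD74 with MIF, so a place here does not set a gene apart from MIF. On the higher side Eid3, of a family of p300-binding inhibitors of differentiation, came first. It was at 8.20, 7.97 and 8.94 with sCD74 and at 7.78, 7.17 and 8.18 with carrier. Its carrier array of replicate 2 lay below the background level. Its difference was 0.66 ± 0.13 (SE; limma unadjusted p = 0.00037). Slc7a2, which carries arginine into cells, was at 10.81, 10.81 and 10.80 with sCD74 and at 10.44, 10.28 and 10.08 with carrier. Its groups did not overlap, and the sCD74 arrays differed far less among themselves than the carrier arrays did. Slc7a2 averaged 10.80 with sCD74, 10.93 with MIF, 10.99 with both and 10.27 with carrier. For Eid3 these means were 8.37, 7.80, 7.91 and 7.71. Snrpf, a core protein of the splicing machinery, was at 8.22, 8.20 and 8.35 with sCD74, against 7.57, 7.94 and 7.96 with carrier. Notch3, a Notch receptor known from mural cells, was at 9.91, 9.75 and 10.23 with sCD74 and at 9.56, 9.50 and 9.73 with carrier. The other higher genes were Ifit3, Ifit3b and Cmpk2, the ciliary genes Dzip1l and Cplane1, the glutamate transporter Slc1a3, Kalrn and the chloride and proton exchanger Clcn6, with differences from 0.35 to 0.90.

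On the lower side Aif1 was followed by Glipr1, at 11.74, 13.32 and 12.58 with sCD74 and at 12.38, 13.68 and 13.33 with carrier, a difference of -0.58 ± 0.13 (SE). Gbp8 was at 8.99, 10.39 and 10.18 with sCD74 and at 9.79, 10.85 and 10.58 with carrier, a difference of -0.55 ± 0.13. Nr4a3, an orphan nuclear receptor, was at 8.41, 7.13 and 7.29 with sCD74 and at 9.21, 7.46 and 7.92 with carrier, a difference of -0.58 ± 0.14. Its sCD74 arrays of replicates 2 and 3 and its carrier array of replicate 2 lay below the background level. Each of these genes was lower in every pair, with overlap between the groups. Several further genes of this group are known from macrophages. Tlr8, an endosomal Toll-like receptor, was at 10.16, 11.72 and 10.69 with sCD74 and at 11.40, 11.76 and 11.63 with carrier. Maf, a transcription factor of resident macrophages, differed by -0.48 ± 0.13, and Ly86, the partner of the receptor RP105, by -0.53 ± 0.14. The remaining lower genes were the ubiquitin ligase Lrsam1, the peroxiredoxin-like Prxl2a, Prr5l, which binds mTOR complex components, Strip2 and the lysophospholipase Pnpla7. The level with MIF varied among the lower genes. Lrsam1 averaged 8.91 with sCD74, 8.87 with MIF, 8.94 with both and 9.35 with carrier. These means were 10.86, 10.96, 11.01 and 11.60 for Tlr8, and 11.39, 11.83, 11.84 and 12.08 for Aif1.

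**Figure D4:**
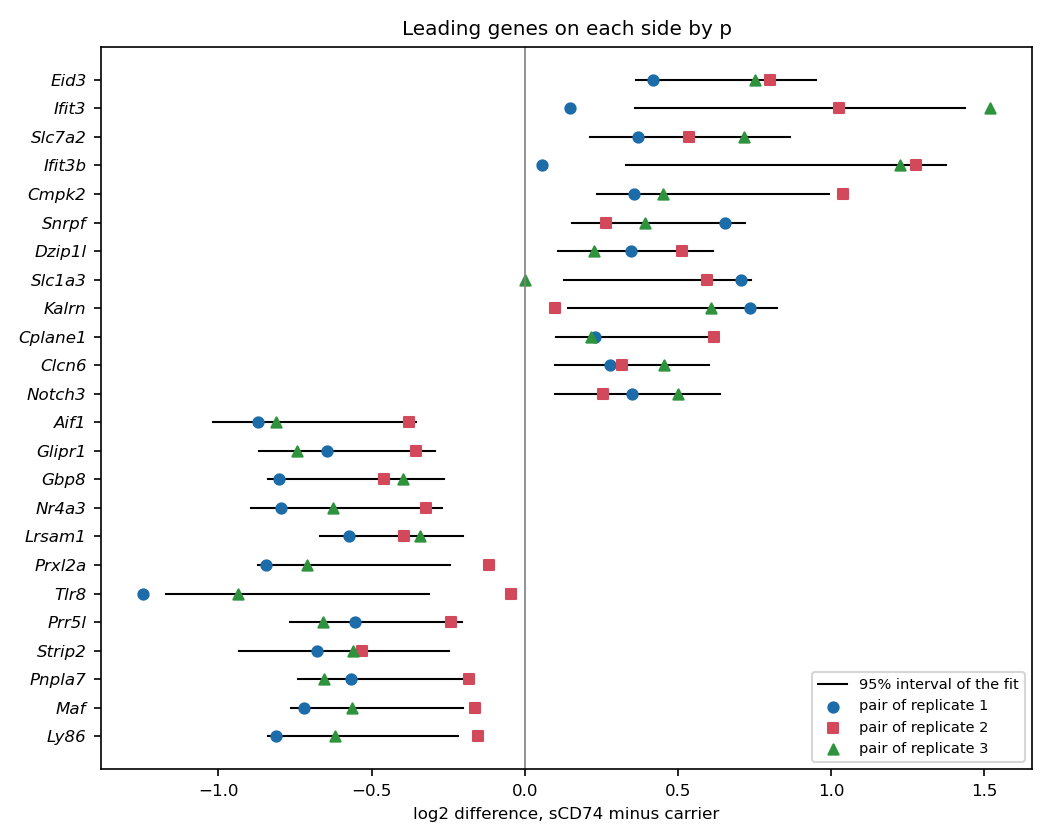
Log2 difference between sCD74 and carrier for the 12 leading genes on each side by p. Symbols give each replicate pair and lines the 95% interval of the limma fit. None of these genes passed the adjusted threshold, and for Ifit3b, Slc1a3 and Tlr8 the difference of 1 pair lies within 0.06 of 0.

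Ranked by size under the same filters, the lower side began with Atp6v0d2, a proton pump subunit of macrophages and osteoclasts, at 12.69, 14.37 and 11.49 with sCD74 and at 13.29, 14.55 and 13.20 with carrier. Most of its difference of -0.83 ± 0.29 came from replicate 3. Mfap2, a component of elastic microfibrils, was at 10.58, 10.64 and 10.06 with sCD74 and at 11.38, 10.86 and 11.24 with carrier, with no overlap. Lrat, which makes retinyl esters, was at 7.91, 8.75 and 8.74 with sCD74 and at 9.38, 9.14 and 8.95 with carrier, again with no overlap. Hpse, the heparan sulfate cleaving enzyme heparanase, differed by -0.73 ± 0.20, Hpgd, which degrades prostaglandins, by -0.72 ± 0.21, and the complement component C7 by -0.68 ± 0.25. On the higher side Lmcd1, a LIM domain protein, was at 10.99, 10.15 and 10.20 with sCD74 and at 9.84, 9.83 and 9.98 with carrier. Phgdh, the first enzyme of serine synthesis, was at 10.63, 10.20 and 10.30 with sCD74 and at 9.48, 9.92 and 10.06 with carrier. In both genes the groups did not overlap, and replicate 1 differed by 1.15 while the other pairs differed by 0.22 to 0.32. In replicate 1 Lmcd1 was at 10.83 with MIF and 10.52 with both, and Phgdh at 10.16 and 10.71. The carrier array was thus the lowest of that replicate in both genes.

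The genes that define the myofibroblast differed little. Acta2, smooth muscle alpha-actin, was at 16.98, 16.47 and 16.32 with sCD74 and at 16.55, 16.48 and 16.35 with carrier. Only replicate 1 was higher, and the interval of the difference ran from -0.13 to 0.39. Of 16 contractile and stress fibre genes, 11 had a higher mean, but by pair 13, 2 and 5 were higher in replicates 1, 2 and 3, with pair medians of 0.36, -0.07 and -0.01. Of the 20 genes of glycolysis and the hypoxia response 17 had a higher mean, and 18, 11 and 12 were higher in replicates 1, 2 and 3. Their median was 0.14 and their pair medians 0.35, 0.01 and 0.03, so that replicate 1 stood apart in both lists. In replicate 1 the mean level of the glycolysis list was 12.50 with sCD74, 12.43 with MIF, 12.59 with both and 12.19 with carrier. That of the contractile list was 13.51, 13.28, 13.47 and 13.19. Against carrier the glycolysis median was 0.16 with MIF and 0.21 with both, and the contractile median 0.04 and 0.07.

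Collagens were slightly higher by their means, 13 of 17, at a median of 0.13 and pair medians of 0.21, 0.17 and -0.03. Col1a1, the main chain of type I collagen, was at 16.30, 16.16 and 16.12 with sCD74, against 15.94, 15.94 and 15.96 with carrier. The groups did not overlap, and the difference was 0.25 ± 0.12 (SE), a fold of 1.19, with a limma unadjusted p of 0.053. Col1a1 averaged 16.19 with sCD74, 16.15 with MIF, 16.15 with both and 15.94 with carrier. Col1a2 and Col3a1, of types I and III, were also higher in each pair, by 0.18 ± 0.11 and 0.13 ± 0.11. Col5a2 was at 13.95, 13.81 and 13.87 with sCD74 and at 13.43, 13.64 and 13.67 with carrier, while Col5a3, of the same collagen type, was at 8.01, 8.13 and 8.50 with sCD74 and at 8.49, 8.60 and 8.49 with carrier. All 12 measured genes of collagen processing and cross-linking had a higher mean, 7 of 12 in all 3 pairs, against 12.3% of all probe sets. Their median was 0.11, with pair medians of 0.24, 0.06 and 0.01, and none had an unadjusted p under 0.05. In replicate 1 their mean level was 14.42 with sCD74, 14.38 with MIF, 14.38 with both and 14.16 with carrier. P4ha2, a collagen prolyl hydroxylase, was highest at 0.34 ± 0.16. Tcf21, a transcription factor of cardiac fibroblasts, was at 14.38, 14.17 and 14.35 with sCD74 and at 13.93, 14.09 and 14.10 with carrier, and 8 of 11 fibroblast markers had higher means at a median of 0.13.

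Among 18 TGF-beta signalling and response genes 10 were higher and the median was 0.05. Id3, an inhibitor of basic helix-loop-helix factors, was at 12.79, 12.42 and 12.44 with sCD74 and at 12.17, 12.20 and 12.26 with carrier, with no overlap. It averaged 12.55 with sCD74, 12.50 with MIF, 12.63 with both and 12.21 with carrier. Ltbp2, a latent TGF-beta binding protein family member, was higher in replicates 1 and 2, at 8.69, 8.71 and 8.35 with sCD74 and at 7.88, 8.13 and 8.44 with carrier. Of the genes that unfolded protein or amino acid shortage induces, 13 of 17 genes were higher at a median of 0.09. Their pair medians were 0.21, 0.05 and -0.01. In replicate 1 their mean level was 12.26 with sCD74, 12.24 with MIF, 12.47 with both and 11.96 with carrier. The leading members of this list were Phgdh and Slc7a5, a large neutral amino acid transporter. Slc7a5 was at 13.61, 13.55 and 13.21 with sCD74 and at 12.76, 13.13 and 13.10 with carrier. It averaged 13.46 with sCD74, 13.34 with MIF, 13.34 with both and 13.00 with carrier. Lists of cell cycle, immediate early, matrix protease, oxidative stress and cholesterol synthesis genes had medians between -0.02 and 0.10, with 0 members at an unadjusted p under 0.05 in either direction.

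**Figure D5:**
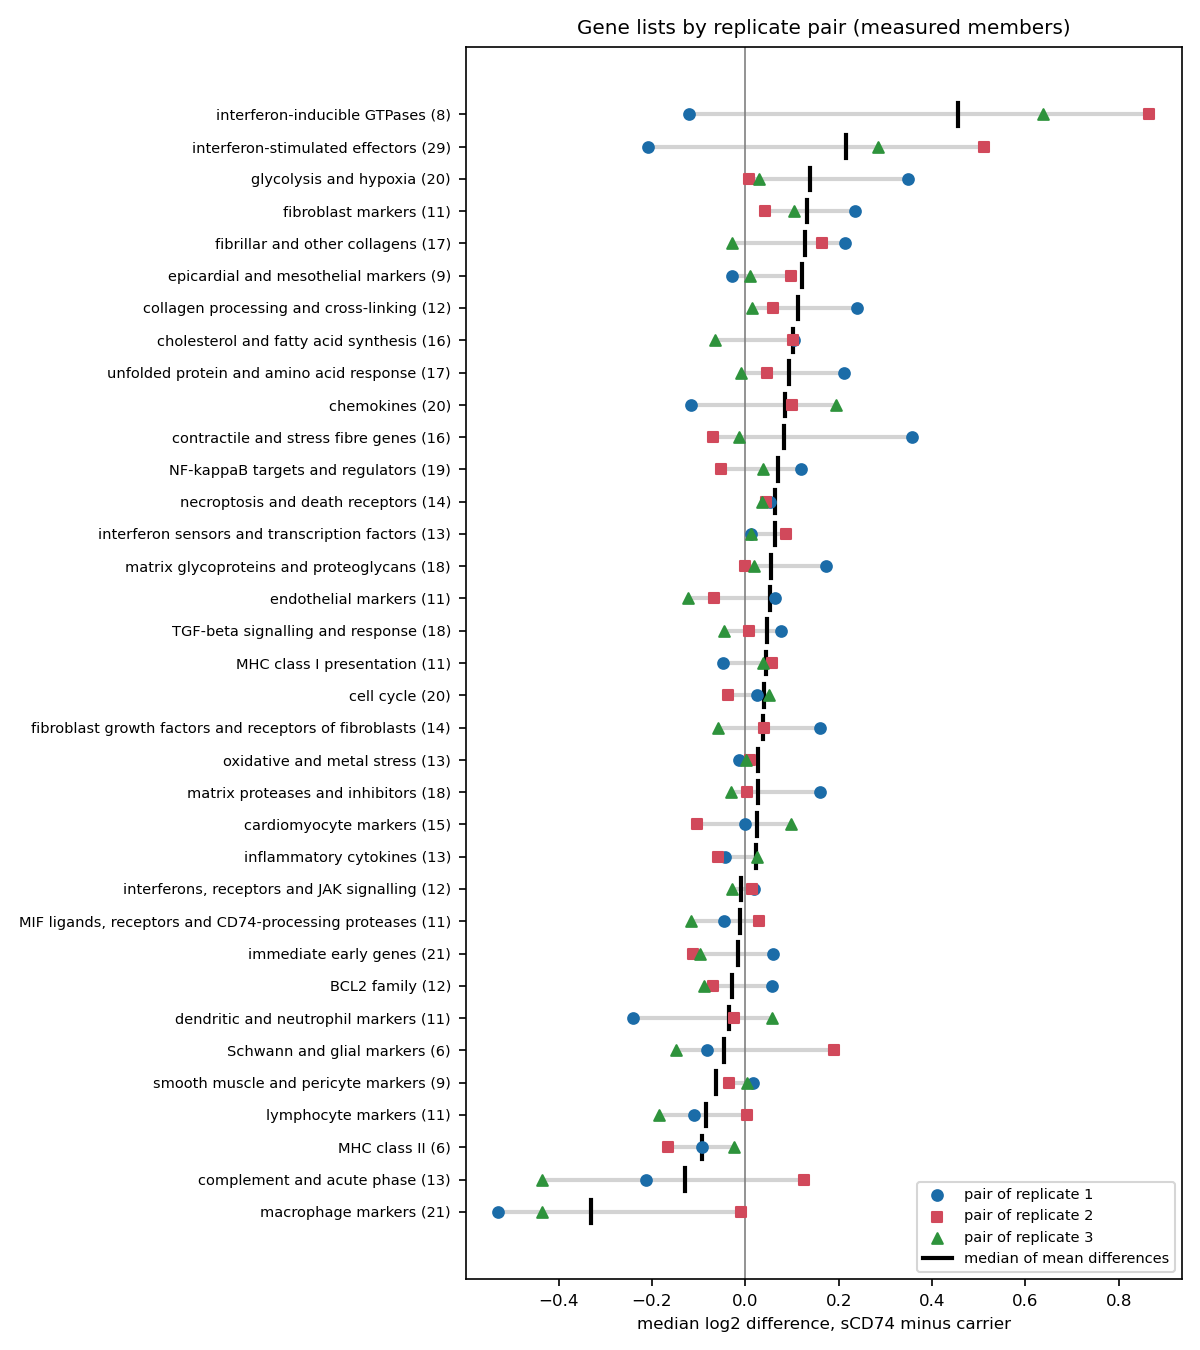
Median log2 difference between sCD74 and carrier for each of 35 gene lists, with the number of measured members in brackets. Coloured symbols give the median within each replicate pair and black ticks the median of the members' mean differences. The 2 interferon-inducible lists at the top have 1 pair below 0, and the macrophage markers at the bottom have 1 pair at -0.01.

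The 11 measured ligands, receptors and proteases of the MIF system had a median of -0.01, with 4 higher and 7 lower, and some receptors had wide pairs of opposed sign. Cd44, the co-receptor of CD74, was at 12.95, 12.50 and 12.79 with sCD74 and at 12.97, 12.63 and 12.67 with carrier. Mif itself was at 10.86, 10.92 and 10.58 with sCD74 and at 10.27, 10.81 and 10.58 with carrier, so that only replicate 1 stood apart. Its homologue Ddt differed by -0.15 ± 0.17. Of the chemokine receptors that bind MIF, Cxcr4 was at 11.12, 10.32 and 9.64 with sCD74 and at 11.16, 10.35 and 10.44 with carrier, so that only replicate 3 stood apart. Cxcr2, with group means near the background level, was at 7.38, 7.82 and 8.57 with sCD74 and at 8.18, 7.63 and 7.74 with carrier. Its pairs differed by -0.81, 0.18 and 0.83 in replicates 1, 2 and 3, with a fitted difference of 0.07 ± 0.25. Ackr3, whose carrier mean lay below background, differed by 0.34, 0.78 and -0.25, with a fitted difference of 0.29 ± 0.21. Adam10 and Adam17, sheddases of many membrane proteins, differed by -0.04 ± 0.11 and -0.01 ± 0.11. The protease Ctss, counted in this list as well as among the macrophage markers, was lower in each pair. Its difference of -0.36 ± 0.14 had the smallest p of the list.

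Cell death genes are given because sCD74 and MIF are known from studies of necroptosis in myofibroblasts. Ripk3, the kinase that triggers necroptosis, was at 8.90, 8.83 and 8.44 with sCD74 and at 8.29, 8.72 and 8.39 with carrier, a difference of 0.26 ± 0.14. Mlkl, the protein that it activates, was at 11.93, 12.23 and 12.08 with sCD74 and at 11.91, 12.01 and 12.04 with carrier. Casp8, the protease that restrains necroptosis, was at 15.55, 15.59 and 15.41 with sCD74 and at 15.77, 15.59 and 15.57 with carrier. Cflar, which encodes the caspase-8 regulator FLIP, was at 12.76, 12.91 and 13.10 with sCD74 and at 12.59, 12.55 and 12.72 with carrier, with no overlap and a difference of 0.30 ± 0.12 (SE; limma unadjusted p = 0.025). Bcl2, the antiapoptotic founder of its family, was lower in each pair, at 13.20, 12.18 and 12.43 with sCD74 and at 13.55, 12.27 and 12.78 with carrier. Ripk1 was not analysed here.

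The sCD74 arrays were also set against those of MIF alone, at doses of 40 and 8 nM that were not matched, and against those of both proteins. Against MIF, 422 probe sets (1.9%) were higher and 670 (3.02%) lower with sCD74 at an unadjusted p under 0.05, and 0 passed after adjustment, with a smallest adjusted p of 0.598. Against the combined treatment 523 (2.36%) were higher and 675 (3.04%) lower with sCD74 alone, with 0 after adjustment and a smallest adjusted p of 0.612. The differences in these contrasts are taken without the carrier arrays, but their p-values are not, since the spread was estimated over all 12 arrays. Without carrier replicate 1, 2 or 3 the smallest adjusted p against MIF was 0.818, 0.985 and 0.980, and without the sCD74 array of replicate 1 it was 0.111. All comparisons with carrier share the carrier arrays, and both of these contrasts share the sCD74 arrays.

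Birc3, which encodes the ubiquitin ligase cIAP2, had the smallest p of 19 NF-kappaB targets and regulators in both contrasts. It was at 11.96, 12.32 and 12.26 with sCD74, 12.41, 13.23 and 13.23 with MIF, 12.68, 13.06 and 13.21 with both, and 11.94, 12.42 and 12.10 with carrier. Every sCD74 array lay below every MIF array and close to the carrier arrays. The sCD74 minus MIF difference was -0.78 ± 0.14 (SE; limma unadjusted p = 0.00011), that to the combined treatment -0.80 ± 0.14, and that to carrier 0.03 with a 95% interval from -0.27 to 0.33. Nfkbia, the inhibitor that NF-kappaB induces, was at 11.15, 11.53 and 11.48 with sCD74, 11.43, 12.16 and 12.34 with MIF and 11.17, 11.53 and 11.44 with carrier. Its difference from MIF was -0.59 ± 0.14. Tnf, which was near the background level, was at 7.05, 7.93 and 7.65 with sCD74, 7.21, 8.84 and 9.42 with MIF and 6.87, 8.31 and 7.38 with carrier. Icam1, a leukocyte adhesion molecule, differed from MIF by -0.48 ± 0.15 and from carrier by -0.10, with an interval from -0.42 to 0.23.

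Of these 19 genes, 14 had a higher mean with sCD74 than with carrier at a median of 0.07. By pair 14, 5 and 10 were higher, with medians of 0.12, -0.05 and 0.04, and 1 was higher and 3 were lower in all 3 pairs. Against MIF 1 had a higher mean with sCD74, at a median of -0.25, and 5 of the 19 had an unadjusted p under 0.05 on the lower side, against 3.02% of all probe sets. Rel, an NF-kappaB subunit, was lower with sCD74 than with carrier in each pair. It was at 11.24, 11.70 and 11.32 with sCD74 and at 11.81, 11.82 and 11.71 with carrier. Its groups all but touched, at 11.701 for sCD74 replicate 2 against 11.705 for carrier replicate 3. The interferon effectors had a median of 0.14 for sCD74 minus MIF, with 22 of 29 higher, and of -0.22 for sCD74 minus the combined treatment, with 8 of 29 higher. Their mean level was 8.72, 9.70 and 9.43 with sCD74 and 8.69, 9.30 and 9.43 with MIF, so that only replicate 2 was clearly higher with sCD74. The GTPases had 0 of 8 higher with sCD74 than with MIF, at a median of -0.16. Ifit3 averaged 11.68 with sCD74, 11.47 with MIF, 12.05 with both and 10.78 with carrier. Gbp2 was at 9.42, 11.21 and 10.96 with sCD74 and at 10.00, 11.90 and 11.96 with both, a difference of -0.76 ± 0.26.

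Among markers of other cells, Flt1, a VEGF receptor of endothelium, was at 11.26, 10.64 and 10.46 with sCD74 and at 10.20, 10.73 and 9.61 with carrier, higher in replicates 1 and 3. It averaged 10.79 with sCD74, 10.75 with MIF, 10.85 with both and 10.18 with carrier. Vwf, von Willebrand factor, was lower in each pair, at 7.81, 8.67 and 8.45 with sCD74 and at 8.68, 8.81 and 8.67 with carrier. Its groups all but touched, at 8.666 for sCD74 replicate 2 against 8.668 for carrier replicate 3. Over the 11 endothelial markers 6 were higher and 5 lower, at a median of 0.05, and over 15 cardiomyocyte markers the median was 0.03. The smooth muscle and pericyte list had a median of -0.06, the epicardial and mesothelial list 0.12, the lymphocyte list -0.08 and the Schwann and glial list -0.05.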

How the data were processed

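Per the labels' protocols, total RNA was isolated after 8 h, and 150 ng of it was labelled with biotin for Affymetrix whole-transcript arrays. Affymetrix Expression Console, Transcriptome Analysis Console and RMA are named, with no version, in the submitters' processing notes. Plain RMA gives all arrays the same distribution of intensities, so a change in total RNA cannot be seen. The deposited table holds 1 log2 value per probe set and array, and these entered the fit with no further step. Non-control values ran from 3.29 to 18.39, with 177 to 192 per array above 16, so the size of a fold depends on a scale that plain RMA of a 16-bit scan would not reach. Scanner files were not used here, and the genome build of the array design was not given in the sources used here. Precision is limited by the 3 arrays per group.

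Of 28846 rows, 6640 were controls. Platform annotation gave 1 symbol to 19572 of the 22206 probe sets tested, several to 0 and none to 2634, and they stand for 19505 genes. Of probe sets with a common symbol, the brightest by its mean over the 12 arrays represented the gene. limma 3.58.1 in R 4.3.3 fitted 4 group means and the replicate number over all 12 arrays (lmFit, eBayes, two-sided, Benjamini-Hochberg over all probe sets, threshold 0.05), and the fit was tested on simulated data. The replicate number pairs the arrays because their titles share a code. Deviations from the group means of same-numbered arrays correlated at 0.08 to 0.63, above 0.1 in 16 of 18 pairs of arrays, and those of different-numbered arrays of different groups at -0.53 to 0.17.

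The genes named were up to 12 in each direction with the smallest p and 8 with the largest difference (named, above the negative control level, 3 pairs of 1 sign), the 4 leading members of each list by p, members whose 3 pairs have 1 sign, and a fixed set of MIF, death, interferon and matrix genes. The members and lists were chosen with earlier results of these data known, so lists have counts and medians and no test. Promoters came from RefSeq (GRCm38.p6). Alternatives were no replicate block, 6 arrays only, trend and robust variance, median centring, a further quantile normalization, 1 probe set per gene, a filter on low values, array weights and leaving out each array or pair. Some genes of the lists are not reported here.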

Additional observations from a re-analysis of the deposited data

How the results depend on the processing

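No alternative called a probe set at an adjusted p under 0.05, and the smallest adjusted p for sCD74 against carrier was between 0.608 (without the pair of replicate 1) and 0.9999. The count at an unadjusted p under 0.05 was 921 with the replicate block and 396 without it, where the pairs' shared deviations stay in the error. It was 579 with a filter on low values, which tested fewer probe sets, and 626 to 1231 with single arrays or pairs left out. The block changed no other call. The smallest adjusted p with trend and robust variance was 0.0947 against MIF and 0.0653 against the combined treatment. For the 172 genes of the naming rule, 3 of 1351 values turned sign under other settings and 38 of 1548 with arrays or pairs left out. For genes named because their pairs share 1 sign, the choice itself fixes the sign when a pair is left out. Of 280 values of list medians under other settings 8 turned sign, and of 315 with arrays left out 55 did. The lists concerned had medians from -0.06 to 0.12, and the interferon-stimulated effector, GTPase and macrophage lists were not among them. Low signal limits the precision most for the 9630 probe sets whose mean lay at or below the negative control level.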
